A study of Mus musculus with 16 samples.

Results

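The expression of 9 genes of homologous recombination and double-strand break repair was followed in mouse cortical progenitors carrying a guide against Chd1, which encodes a chromatin remodeller known to act in break repair. The genes were chosen by name as Brca1, Brca2, Palb2, Rad51ap1, Exo1, Blm, Fancd2, Fanci and Trp53bp1, out of 49166 genes matched in the deposited files, and all 9 were among the 16971 genes with enough counts to be tested. RNA was measured in 16 libraries of neural progenitor cells (NPC) grown from E18.5 mouse cortex (late gestation), in 4 groups of 4 biological replicates that came from embryos of 2 litters. KO DHT+ENZ cells carried a lentivirus with constitutive Cas9 and a guide RNA against Chd1, and received 10 µM enzalutamide (ENZ, an androgen receptor antagonist) 30 min before 10 nM dihydrotestosterone (DHT, an androgen) for 24 h. KO DHT cells carried the same lentivirus and received DHT for 24 h. KO DMSO cells carried it and received the DMSO vehicle. WT DMSO cells, labelled wild type, carried a control lentivirus with Cas9 and no guide, and received DMSO. All cultures had passed 48 h of puromycin selection, the labels describe no clones, and the strain was not given in the sources used here. No WT culture received DHT, and ENZ was never given alone.

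Homologous recombination repairs a broken chromosome by copying the sister chromatid, and is used mainly after the DNA has been replicated. The broken ends are first cut back to single strands, a step that 53BP1 (the product of Trp53bp1) opposes and that EXO1 and BLM carry out. BRCA1, PALB2 and BRCA2 then load the recombinase that searches for the matching sequence, RAD51AP1 stimulates its strand invasion, and the FANCD2 and FANCI pair marks stalled forks and crosslinks for repair. Loss of Brca1 or Brca2 is known to harm dividing neural progenitors in mice, and several of the genes are known to be transcribed most in cells that replicate their DNA.

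Promoters of 7 of the 9 genes were found in the RefSeq table of mouse build GRCm38.p6, each covering 250 bases before and 50 after the annotated start on the strand of the gene. A set of 3 motifs known from cell cycle promoters was searched on both strands. The E2F motif, spelled TTTCCCGC, TTTGGCGC, TTTCGCGC or TTTGCCGC, was present in 1 of the 7 promoters, that of Brca2, and in 2.26% of all 32851 promoters in the table. The CCAAT box bound by NF-Y was present in 4 of the 7, those of Rad51ap1 and Blm with 2 matches each and those of Brca1 and Palb2 with 1 each, and in 37.4% of all promoters. The CHR element of genes of late cell cycle, spelled TTTGAA or TTCGAA, was present in 0 of the 7 and in 19.2% of all promoters. The letters of these motifs do not overlap each other in the 7 windows. A match describes the letters of the window and not a bound site. The 4 promoters below are shown because Fanci had the largest change among the 9, Rad51ap1 held 2 CCAAT boxes, Brca2 held the E2F match and Trp53bp1 had the value nearest to 0. They lie at chr7:79392088-79392387 on the plus strand (Fanci), chr6:126939538-126939837 on the minus strand (Rad51ap1), chr5:150522371-150522670 on the plus strand (Brca2) and chr2:121271358-121271657 on the minus strand (Trp53bp1), and are written 5′ to 3′ on the strand of the gene with motif matches in capitals.
Fanci: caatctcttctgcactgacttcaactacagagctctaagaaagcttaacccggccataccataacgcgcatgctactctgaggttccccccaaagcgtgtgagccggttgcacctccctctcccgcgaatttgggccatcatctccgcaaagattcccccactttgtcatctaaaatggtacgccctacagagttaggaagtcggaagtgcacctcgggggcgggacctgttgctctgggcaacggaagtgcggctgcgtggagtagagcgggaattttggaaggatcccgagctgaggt
Rad51ap1: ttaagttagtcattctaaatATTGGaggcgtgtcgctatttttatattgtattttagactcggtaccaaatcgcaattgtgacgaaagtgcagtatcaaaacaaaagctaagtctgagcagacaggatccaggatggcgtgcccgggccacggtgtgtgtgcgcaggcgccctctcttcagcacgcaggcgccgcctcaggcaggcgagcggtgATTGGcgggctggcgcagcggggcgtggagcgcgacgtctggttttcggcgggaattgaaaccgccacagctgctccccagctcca
Brca2: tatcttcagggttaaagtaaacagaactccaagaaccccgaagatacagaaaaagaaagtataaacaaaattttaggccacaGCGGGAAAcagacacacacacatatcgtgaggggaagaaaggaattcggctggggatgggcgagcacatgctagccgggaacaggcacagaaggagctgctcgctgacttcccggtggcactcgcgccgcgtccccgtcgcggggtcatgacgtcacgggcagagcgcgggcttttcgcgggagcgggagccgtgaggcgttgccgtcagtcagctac
Trp53bp1: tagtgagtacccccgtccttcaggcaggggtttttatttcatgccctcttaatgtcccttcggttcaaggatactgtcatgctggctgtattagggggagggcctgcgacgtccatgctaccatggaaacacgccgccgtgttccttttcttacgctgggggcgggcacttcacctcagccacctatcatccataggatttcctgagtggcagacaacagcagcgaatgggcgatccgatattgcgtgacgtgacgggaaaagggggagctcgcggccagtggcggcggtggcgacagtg
The Brca2 match reads GCGGGAAA on the strand shown, and the CCAAT boxes of Rad51ap1 read ATTGG.

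Library totals were 31.8 M to 36.9 M estimated counts (M, mega), apart from WT DMSO replicate 1, which had 20.2 M. Levels are given as CPM, counts scaled to a common library total after TMM normalization, or as TPM, the abundance per transcript length that the deposited files hold. Chd1 RNA, the target of the guide, was between 59.9 and 77 CPM in all 16 libraries, with a log2 fold change of 0.01 (SE 0.08) in KO DMSO over WT DMSO, so its level does not check the genotype labels. Over genes with at least 10 CPM on average, the leading principal component (43.2% of variance) set replicates 1 and 4 apart from replicates 2 and 3 in all groups, and the next (23.6%) set WT DMSO replicate 1 apart. The 10 progenitor markers summed to 6360 to 7720 TPM in KO DHT+ENZ, 6836 to 7873 in KO DHT, 6983 to 8384 in KO DMSO and 6969 to 8233 in WT DMSO. Summed markers of microglia, of fibroblasts and pericytes, and of endothelium stayed at or under 5.71, 2.87 and 3.66 TPM in every library. Those of other neural cells were well above that, with 6 neuron markers summing to 248 to 514 TPM over the 16 libraries, 4 astrocyte markers to 31.5 to 137 TPM and 5 oligodendrocyte lineage markers to 440 to 595 TPM, and the ranges of the 4 groups overlapped for each. In bulk RNA, fewer cells of a kind and less RNA per cell cannot be told apart.

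Per length, the 9 genes were of low to moderate abundance, and the order below is of levels over all 16 libraries. Trp53bp1 had the highest mean at 33.1 ± 10.2 TPM, followed by Rad51ap1 at 31.9 ± 5.04, and these neighbours differed by less than their spread (SD, n = 16 libraries for each gene). Exo1 followed at 19.1 ± 3.39, Blm at 14.9 ± 2.4, Fanci at 12.6 ± 2.36 and Brca2 at 11.8 ± 2.58 TPM. Brca1 was at 9.1 ± 1.58, Fancd2 at 8.7 ± 1.97 and Palb2 at 5.24 ± 1.41 TPM. Below the step between Rad51ap1 and Exo1, only the steps from Exo1 to Blm, from Brca2 to Brca1 and from Fancd2 to Palb2 were wider than the SD of the lower gene. Gene sums of TPM count short transcripts fully. For Trp53bp1 the coding transcript Trp53bp1-202 alone averaged 7.26 TPM in KO DHT+ENZ, 8.57 in KO DHT, 7.43 in KO DMSO and 7.25 in WT DMSO. Group means of the coding transcript Rad51ap1-202 were 12 to 17.4 TPM. Those of Brca2-210 were 1.69 to 2.8 TPM and those of Brca2-201 were 0.0227 to 0.384 TPM, against 6.69 to 9.86 TPM for Brca1-201. The order of the gene sums is therefore not the order of these coding transcripts.

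KO DHT+ENZ cultures were first set against KO DHT cultures, to see how cultures with ENZ added to DHT differed. Without ENZ alone, receptor blockade cannot be told apart from other effects of the drug. Repair gene RNA was lower on average with ENZ for all 9 genes, for Trp53bp1 by less than its SE, where 8609 of all 16971 genes were lower. Of the 9 genes, 2 were called lower in edgeR at an adjusted p under 0.05, Fancd2 and Fanci, where 0.189% of all 16971 genes were called lower. With the replicate number added to the model as a block, 6 of 9 were called lower, Brca1, Rad51ap1, Exo1, Blm, Fancd2 and Fanci, where 1.92% of all genes were. The 9 genes had a median log2 fold change of -0.39, beside 0.00 over all genes tested. For 5 of the 9 genes every KO DHT+ENZ library was below every KO DHT library, where 2.97% of all genes behaved so.

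**Figure D1:**
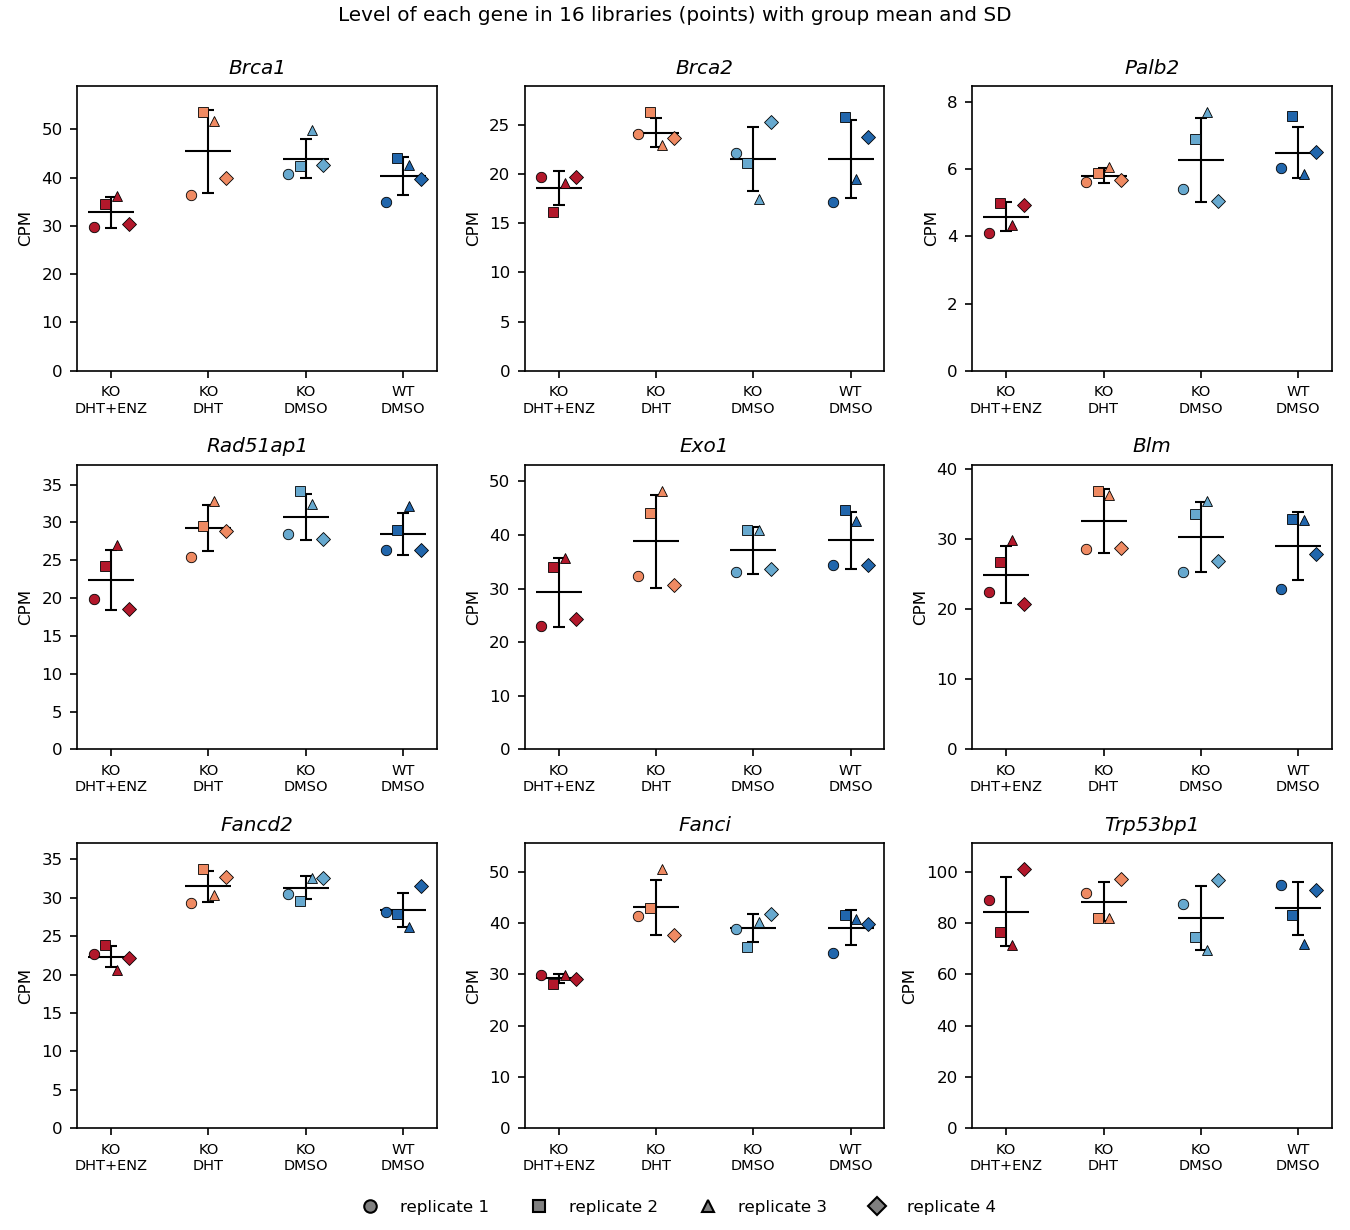
CPM of each of the 9 genes (y axis, from 0) in the 4 groups (x axis), with 1 point per library, a marker shape per replicate number, and bars for the group mean and SD (n = 4). The KO DHT+ENZ points of Fancd2 (20.6 to 23.9 CPM) and Fanci (28.1 to 29.9 CPM) lie below all 12 points of the other groups, while those of Trp53bp1 (71.3 to 101 CPM) span the same range as the other groups.

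Fancd2 and Fanci encode the pair of proteins that is clamped onto DNA at crosslinks and stalled forks in the Fanconi anaemia pathway. Fancd2 was at 22.7, 23.9, 20.6 and 22.1 CPM in KO DHT+ENZ replicates 1 to 4, against 29.3, 33.7, 30.3 and 32.7 CPM in KO DHT. The 2 groups did not overlap, and all 12 libraries of the other 3 groups were above the highest KO DHT+ENZ library. Fancd2 RNA fell by 29.1% (log2 fold change -0.50, SE 0.08; adjusted p = 0.0196 in edgeR, and 0.00192 with the replicate block). Fanci was at 29.9, 28.1, 29.8 and 29 CPM in KO DHT+ENZ, against 41.3, 42.9, 50.5 and 37.6 CPM in KO DHT. Its 4 KO DHT+ENZ libraries were close together and below every library of the other groups. Fanci fell by 32.2% (log2 fold change -0.56, SE 0.10; adjusted p = 0.0206 in edgeR, and 0.0028 with the block). With 1 library left out at a time and no block, the Fancd2 value ranged from -0.53 to -0.46 and its adjusted p from 0.00693 to 0.0749, and the call was lost without KO DHT replicate 2, 3 or 4 or any 1 KO DHT+ENZ replicate. The Fanci value ranged from -0.62 to -0.48 and its adjusted p from 0.00571 to 0.0984. The Fanci call was lost without KO DHT replicate 1, 2 or 3 or KO DHT+ENZ replicate 1, 2 or 4. Of all 16971 genes, 32 were called lower with every library kept. Without KO DHT replicates 1 to 4 in turn, 11, 12, 8 and 19 were. Without KO DHT+ENZ replicates 1 to 4 in turn, 11, 0, 31 and 5 were. With the block both genes were called in each of the 16 fits without 1 library, where 114 to 701 of all genes were called lower.

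Brca1, Palb2 and Brca2 encode the chain of proteins that brings the recombinase to resected ends. Brca1 was at 29.8, 34.6, 36.2 and 30.4 CPM in KO DHT+ENZ, against 36.4, 53.6, 51.8 and 39.9 CPM in KO DHT. The highest KO DHT+ENZ library was just below the lowest KO DHT library, and the KO DHT libraries were widely spread. Brca1 had a log2 fold change of -0.47 (SE 0.12; adjusted p = 0.188 in edgeR) and fell in the model with the block (-0.46, SE 0.08; adjusted p = 0.00451). Brca2 was at 19.7, 16.1, 19.1 and 19.7 CPM in KO DHT+ENZ, against 24.1, 26.3, 22.9 and 23.6 CPM in KO DHT. These groups did not overlap, although the KO DMSO and WT DMSO libraries, with 17.4 to 25.3 and 17.1 to 25.8 CPM, overlapped both. In TPM the 2 groups overlapped, at 8.2 to 13.5 TPM in KO DHT+ENZ and 10.1 to 17.7 TPM in KO DHT. Brca2 did not pass in either model (-0.38, SE 0.13; adjusted p = 0.425, and 0.105 with the block). Palb2, the least abundant of the 9, was at 4.1, 4.99, 4.34 and 4.94 CPM in KO DHT+ENZ, against 5.62, 5.89, 6.08 and 5.67 CPM in KO DHT. The CPM ranges did not overlap, but the TPM ranges did, at 2.17 to 5.82 TPM in KO DHT+ENZ and 5.11 to 5.92 TPM in KO DHT. Palb2 did not pass in either model (-0.34, SE 0.15; adjusted p = 0.626, and 0.17 with the block).

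Rad51ap1, Exo1 and Blm encode the helper of strand invasion, a nuclease that resects ends and a helicase that acts both in resection and in undoing joined intermediates. Rad51ap1 was at 19.88, 24.26, 27.03 and 18.53 CPM in KO DHT+ENZ, against 25.4, 29.5, 32.8 and 28.9 CPM in KO DHT. Exo1 was at 23.1, 34, 35.8 and 24.4 CPM in KO DHT+ENZ, against 32.3, 44.1, 48.3 and 30.6 CPM in KO DHT. Blm was at 22.5, 26.7, 29.8 and 20.7 CPM in KO DHT+ENZ, against 28.6, 36.9, 36.3 and 28.7 CPM in KO DHT. In all 3 genes the CPM ranges of the groups overlapped, because replicates 2 and 3 were the high ones in both groups, and within each replicate number the KO DHT+ENZ culture was the lower. The log2 differences in pairs 1 to 4 were -0.35, -0.28, -0.28 and -0.64 for Rad51ap1, -0.48, -0.37, -0.43 and -0.32 for Exo1, and -0.35, -0.46, -0.29 and -0.47 for Blm. None of the 3 passed without the block (adjusted p = 0.362, 0.622 and 0.552 in edgeR for Rad51ap1, Exo1 and Blm). All 3 fell with it, Rad51ap1 by 0.39 (SE 0.07; adjusted p = 0.00927), Exo1 by 0.40 (SE 0.07; adjusted p = 0.00721) and Blm by 0.39 (SE 0.07; adjusted p = 0.00567) on the log2 scale. In TPM, which takes no part in these tests, the 2 groups did not overlap for any of the 3. Rad51ap1 was at 22.7 to 27.8 TPM in KO DHT+ENZ and 34.4 to 38.3 TPM in KO DHT. Exo1 was at 11.1 to 18 and 19.2 to 25.4 TPM in the same groups. Blm nearly touched, at 10.9 to 15.1 and 15.2 to 19.1 TPM. How many of all genes had no overlap in TPM was not counted.

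Trp53bp1 encodes 53BP1, which shields broken ends from resection and so favours end joining over recombination. It was at 89.2, 76.6, 71.3 and 101 CPM in KO DHT+ENZ, against 91.9, 82, 82.1 and 97.3 CPM in KO DHT. The groups overlapped almost fully, and 3 of 4 pairs were lower with ENZ. Its log2 fold change was -0.06 (SE 0.13) and missed the threshold (adjusted p = 1 in edgeR, and 0.628 with the block). No test was made of the difference between its change and those of the other 8 genes.

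**Figure D2:**
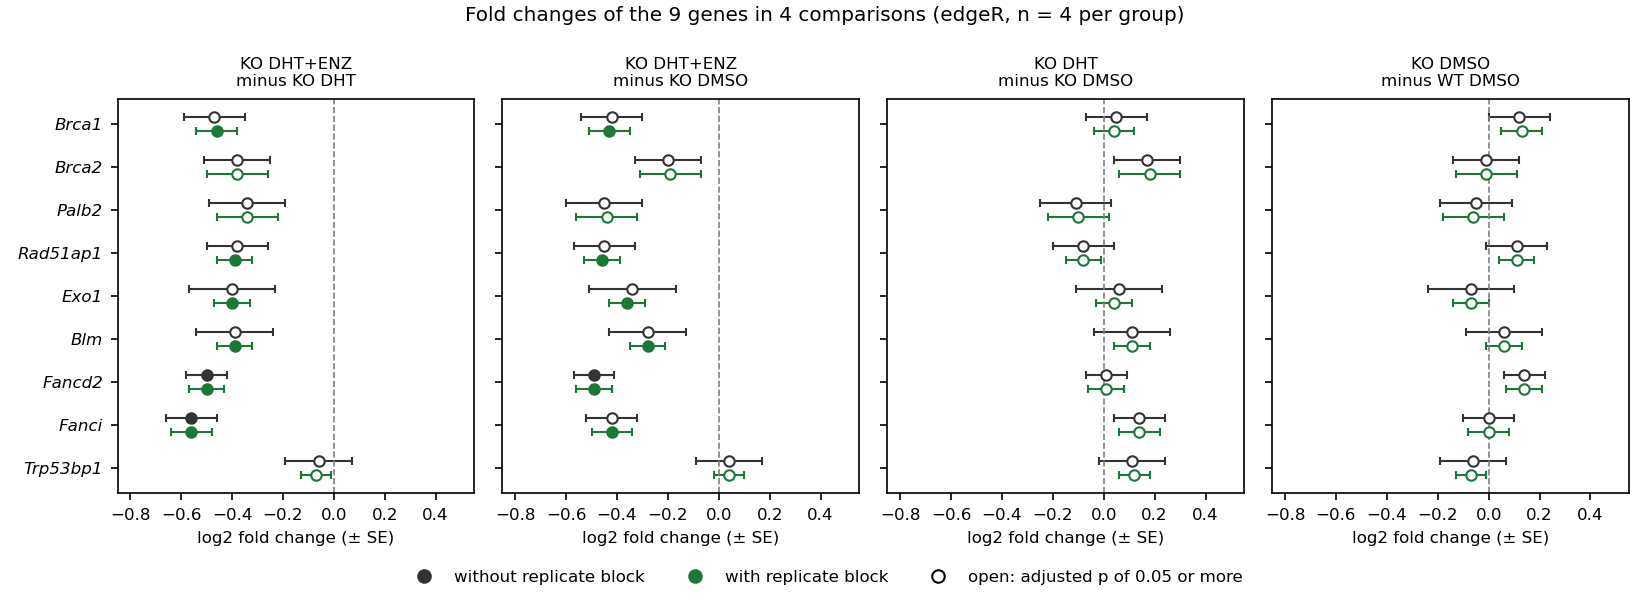
Log2 fold changes of the 9 genes (x axis, with SE as bars) in 4 comparisons, from edgeR without (black) and with (green) the replicate block, n = 4 per group. Filled points have an adjusted p under 0.05, and the KO DHT+ENZ values against KO DHT lie between -0.56 and -0.34 for 8 of the 9 genes, while no point is filled in the DHT and genotype comparisons.

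KO DHT+ENZ was next set against the vehicle, KO DMSO, with the same KO DHT+ENZ libraries. Of the 9 genes 1 was called lower, Fancd2, where 0.200% of all genes were, and with the block 6 were, Brca1, Rad51ap1, Exo1, Blm, Fancd2 and Fanci, where 2.09% of all genes were. The blocked count was 3 (Brca1, Rad51ap1 and Fancd2) without KO DHT+ENZ replicate 4, KO DMSO replicate 1 or KO DMSO replicate 4, where 1.02%, 1.2% and 1.12% of all genes were called lower, in that order. The median log2 fold change of the 9 genes was -0.42, beside 0.01 over all genes. Fancd2 was at 30.5, 29.6, 32.6 and 32.5 CPM in KO DMSO, all above the KO DHT+ENZ libraries given above, and fell by 28.6% in KO DHT+ENZ (log2 fold change -0.49, SE 0.08; adjusted p = 0.0287 in edgeR, and 0.00139 with the block). That call was lost without any 1 KO DHT+ENZ replicate, without KO DMSO replicate 1, 3 or 4, and without WT DMSO replicate 2. Of all genes 0% were called lower without KO DHT+ENZ replicate 1, 2 or 4 or KO DMSO replicate 1, 3 or 4. The share was 0.00589% without WT DMSO replicate 2 and 0.247% without KO DHT+ENZ replicate 3. The adjusted p of Fancd2 over the 16 fits ran from 0.0139 to 0.142 while the value stayed between -0.52 and -0.45. Fanci was at 38.9, 35.3, 40.3 and 41.8 CPM in KO DMSO and had a log2 fold change of -0.42 (SE 0.10; adjusted p = 0.0996 in edgeR, and 0.0125 with the block). It passed without the block where WT DMSO replicate 1, a library of neither arm, was left out (adjusted p = 0.0341 in edgeR). That fit called 0.465% of all genes lower.

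Rad51ap1 was at 28.5, 34.2, 32.4 and 27.8 CPM in KO DMSO, with no library as low as the highest in KO DHT+ENZ. Its log2 fold change was -0.45 (SE 0.12; adjusted p = 0.223 in edgeR, and 0.0025 with the block). Brca1 was at 40.8, 42.4, 49.8 and 42.7 CPM in KO DMSO, again all above KO DHT+ENZ, with a log2 fold change of -0.42 (SE 0.12; adjusted p = 0.295, and 0.00565 with the block). Exo1 (-0.34, SE 0.17) and Blm (-0.28, SE 0.15) overlapped between the groups and passed with the block alone, at adjusted p = 0.0125 and 0.0364 in edgeR. Palb2 was at 5.4, 6.9, 7.71 and 5.07 CPM in KO DMSO, and the lowest of these was close to the highest KO DHT+ENZ library. Palb2 (-0.45, SE 0.15) and Brca2 (-0.20, SE 0.13) did not pass in either model, with adjusted p = 0.0763 and 0.534 in the blocked one. For 5 of the 9 genes, Brca1, Rad51ap1, Fancd2, Fanci and Palb2, the groups did not overlap in CPM, where 3.18% of all genes were lower in that way. In TPM the Fanci and Palb2 ranges overlapped, with Fanci at 8.11 to 11.3 TPM in KO DHT+ENZ and 10.7 to 15.3 TPM in KO DMSO, and Palb2 at 2.17 to 5.82 TPM in KO DHT+ENZ and 3.26 to 6.22 TPM in KO DMSO. Trp53bp1 was at 87.3, 74.5, 69.4 and 96.9 CPM in KO DMSO, and its log2 fold change of 0.04 (SE 0.13; adjusted p = 1 in edgeR) was the one value above 0.

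Against WT DMSO, none of the 9 genes was called in KO DHT+ENZ without the block, where 0.212% of all genes were called lower. All 9 log2 fold changes were below 0, as were those of 8634 of all 16971 genes, and their median was -0.35 beside 0.00 over all genes. Of the 9, 6 had an unadjusted p under 0.05 in edgeR, as had 1653 of all genes. Fancd2 was at 28.1, 27.9, 26.2 and 31.5 CPM in WT DMSO and Fanci at 34.1, 41.5, 40.8 and 39.9 CPM, all above the KO DHT+ENZ libraries. Their log2 fold changes were -0.35 (SE 0.08; adjusted p = 0.0956 in edgeR) for Fancd2 and -0.42 (SE 0.10; adjusted p = 0.077 in edgeR) for Fanci. Palb2 was the third gene without overlap, with 6.04, 7.58, 5.86 and 6.51 CPM in WT DMSO, where 2.38% of all genes were lower in that way, and it did not pass (-0.50, SE 0.15; adjusted p = 0.184). DESeq2 without the block called 2 of the 9, Fancd2 and Fanci, where it called 0.949% of all genes lower.

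With KO DMSO against WT DMSO, the question was how cultures with the Chd1 guide differed from controls without added hormone. None of the 9 genes was called, with or without the block, where 0% of all genes were called lower, and none had an unadjusted p under 0.05, which 508 of 16971 genes had. The 9 genes had a median log2 fold change of 0.00. Fancd2 came nearest, with a value of 0.14 (SE 0.08; adjusted p = 1 in edgeR) and the higher level in KO DMSO in 4 of 4 pairs. Brca1 (0.12, SE 0.12) and Rad51ap1 (0.11, SE 0.12) were higher on average, and Exo1 (-0.07, SE 0.17) was lower in 4 of 4 pairs, each by less than its SE. DESeq2 without and with the block, and limma-voom with a random effect for the replicate number, also called 0 of the 9, where they called 0%, 0.0589% and 0% of all genes lower. In that order they called 0, 4 and 0 of 16971 genes higher.

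With KO DHT against KO DMSO, the question was how the targeted progenitors responded to androgen. Again none of the 9 genes was called in either model, where 0% of all genes were called lower, and none had an unadjusted p under 0.05, which 193 of all genes had. The median log2 fold change was 0.06. Brca2 had the largest value at 0.17 (SE 0.13), followed by Fanci at 0.14 (SE 0.10), and both were higher with DHT in 3 of 4 pairs. Blm (0.11, SE 0.15) and Trp53bp1 (0.11, SE 0.13) were higher in 4 of 4 pairs without passing. Rad51ap1 (-0.08, SE 0.12) and Palb2 (-0.11, SE 0.14) were the 2 genes on the lower side. In KO DHT against WT DMSO, which shares libraries with both comparisons, none of the 9 was called either, where 0% of all genes were called lower (763 at an unadjusted p under 0.05), and the median was 0.14. DESeq2 without the block, and limma-voom with that random effect, called 0 of the 9 and 0% of all genes lower in both comparisons. DESeq2 with the block also called 0 of the 9, where it called 0% of all genes lower in KO DHT against KO DMSO and 0.913% in KO DHT against WT DMSO. In that order it called 1 and 77 of 16971 genes higher.

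Several of the genes also varied with the replicate number. Trp53bp1 was between 87.3 and 101 CPM in replicates 1 and 4 of the 4 groups and between 69.4 and 83 CPM in replicates 2 and 3, with no overlap. Exo1 ran the other way, with 23.1 to 34.5 CPM in replicates 1 and 4 and 34 to 48.3 CPM in replicates 2 and 3. With each group's mean removed, the log2 CPM of Brca1, Rad51ap1, Exo1 and Blm were correlated with one another over the 16 libraries at r = 0.69 to 0.89, and Trp53bp1 was correlated with them at r = -0.90 to -0.69. Fancd2 had r between -0.29 and 0.30 with each of the other 8 genes. These correlations are over libraries that share a replicate number across groups, and are a description with no test. In fits of replicates 1 and 4 alone with the block, 0 of the 9 genes were called in KO DHT+ENZ against KO DHT, and in fits of replicates 2 and 3 alone 5 were, Brca1, Exo1, Blm, Fancd2 and Fanci. The first of these fits called 0% of all 16971 genes lower and the second 1.85%, so the count of 0 among the 9 is that of all genes. The labels do not say which replicates share a litter, and the part of litter in these values was not tested.

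**Figure D3:**
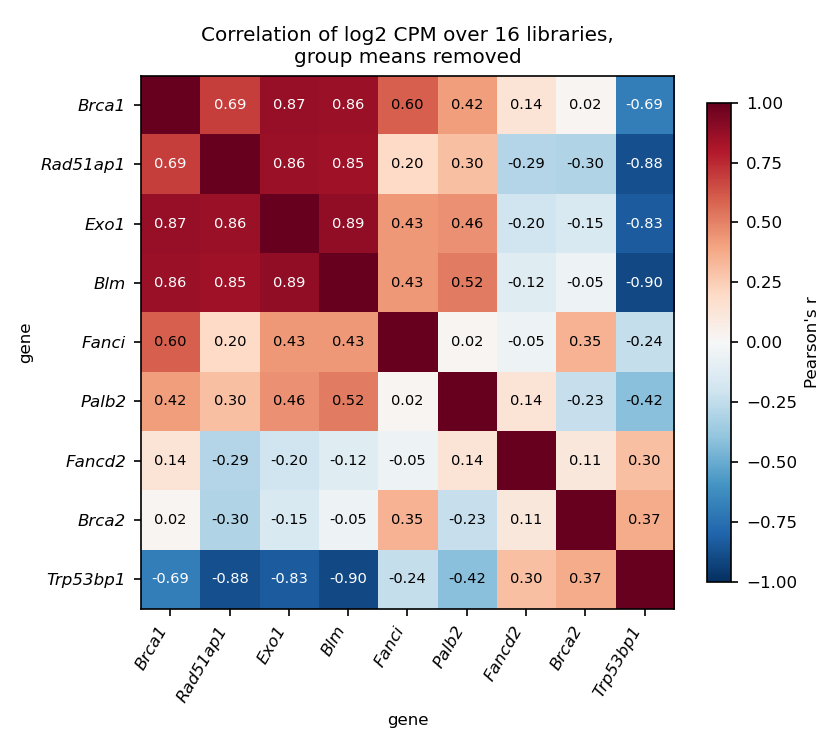
Pearson's r of log2 CPM between each pair of the 9 genes over 16 libraries after removing the mean of each group, with red for positive and blue for negative values. Brca1, Rad51ap1, Exo1 and Blm form a block at 0.69 to 0.89, Trp53bp1 is negative to all 4, and Fancd2 stays between -0.29 and 0.30.

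The genes most like the 9 were sought among 9450 other genes averaging 10 CPM or more, by Pearson's r of log2 CPM with the mean of the 9 standardised genes over the 16 libraries. That mean was -1.29 to -0.82 standard deviations in the 4 KO DHT+ENZ libraries, 0.09 to 0.93 in KO DHT, 0.03 to 0.49 in KO DMSO and -0.35 to 0.68 in WT DMSO. Group means were not removed here, so a high r can come from a shared difference between groups or between replicate numbers. The nearest genes were Stil, of centriole duplication (r = 0.97), the mitotic chromosome motor Kif4 (0.94), Bard1, the partner of BRCA1 (0.93), the polymerase gene Pola1 (0.93), Senp1, a SUMO protease (0.93), the spindle checkpoint kinase Ttk (0.92), Top2a (0.92), Topbp1 (0.92), Smarcc1 (0.91) and Prr11 (0.91). For single genes, the nearest to Exo1 was the replication initiation gene Mcm10 (0.97), to Blm the ubiquitin ligase gene Dtl (0.96), to Brca1 Topbp1 (0.94) and to Rad51ap1 the histone chaperone gene Nasp (0.94). Trp53bp1 was nearest to Chd6, Akap9 and Cacna1b (0.96 each). The other genes had their closest match in Nsd2 for Brca2 (0.91), Top2a for Fanci (0.95), Cep55 for Fancd2 (0.87) and Ctc1 for Palb2 (0.83).

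Related gene lists were counted in KO DHT+ENZ against KO DHT, and no gene of any list was called higher. Of 38 other homologous recombination genes, 1 was called lower without the block and 10 with it, and their median log2 fold change was -0.17. The single call was Dna2, a nuclease and helicase of end resection, at 21.4 ± 1.21 CPM in KO DHT+ENZ and 29 ± 1.15 CPM in KO DHT (SD, n = 4 each), a log2 fold change of -0.43 (SE 0.08; adjusted p = 0.0407 in edgeR). Among those called with the block were the resolvase genes Gen1 (-0.55, SE 0.11; adjusted p = 0.0161) and Eme1 (-0.58, SE 0.11; adjusted p = 0.00837), the translocase gene Rad54l (-0.44, SE 0.08; adjusted p = 0.0103), the BRCA1-bound helicase gene Brip1 (-0.53, SE 0.09; adjusted p = 0.00476) and Bard1 (-0.42, SE 0.09; adjusted p = 0.0151). Of 15 other Fanconi anaemia genes, 0 were called without the block and 2 with it, with a median of -0.11. These were Fanca, of the core complex (-0.39, SE 0.10; adjusted p = 0.0429), and Usp1, which takes ubiquitin off FANCD2 (-0.39, SE 0.08; adjusted p = 0.0191).

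Of 21 tested genes of end joining and the 53BP1 pathway, 0 were called without the block and 3 with it, and their median was -0.08. The 3 were Mdc1, the scaffold at marked chromatin (-0.58, SE 0.10; adjusted p = 0.00476), Polq, the polymerase of microhomology-mediated joining (-0.59, SE 0.12; adjusted p = 0.0158), and the histone variant gene H2afx (-0.40, SE 0.09; adjusted p = 0.0284). Of 14 damage checkpoint genes, 0 were called without the block and 3 with it, Clspn (-0.51, SE 0.07; adjusted p = 0.00185), Timeless (-0.43, SE 0.07; adjusted p = 0.00567) and Topbp1 (-0.28, SE 0.06; adjusted p = 0.0234), and the median was -0.22. Of 20 p53 target genes, 0 were called in either model, with a median of -0.06.

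Genes of the cell cycle were counted in KO DHT+ENZ against KO DHT as well. Of 37 DNA replication genes, 1 was called lower without the block, Pola1 (-0.40, SE 0.08; adjusted p = 0.0444 in edgeR), and 19 with it, with a median of -0.31 and 37 of 37 on the lower side. Of 32 mitosis genes, 12 were called lower without the block and 31 with it, with a median of -0.53. Mki67, the proliferation marker, was at 240 ± 14.3 CPM in KO DHT+ENZ and 386 ± 33.8 CPM in KO DHT (SD, n = 4 each), a log2 fold change of -0.69 (SE 0.10; adjusted p = 0.00752 in edgeR). In KO DHT+ENZ against KO DMSO the replication list had a median of -0.42 and the mitosis list one of -0.57, beside -0.42 for the 9 repair genes. The part of these cell cycle genes in the levels of the repair genes was not tested.

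**Figure D4:**
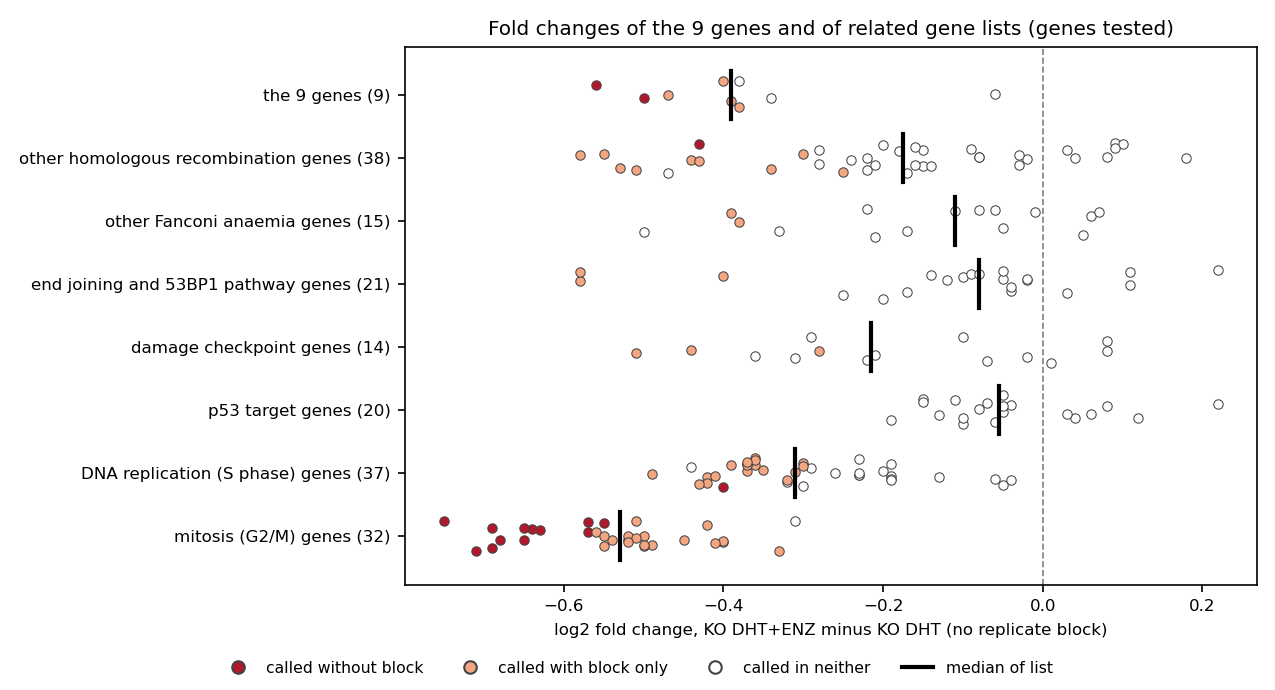
Log2 fold change in KO DHT+ENZ over KO DHT (x axis, no block) of each tested gene of the 9 and of 7 related lists (rows), with bars at list medians and filled points for called genes. Of the 9 genes 8 lie between -0.56 and -0.34, Trp53bp1 lies at -0.06, and the list medians run from -0.53 for mitosis to -0.06 for p53 targets.

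At the level of transcripts, 1 coding transcript held nearly all counts of Brca1 and of Fanci. Brca1-201 held a mean of 99.2% of Brca1 counts in KO DHT+ENZ and 98.8% in KO DHT, and was at 6.61, 6.51, 6.9 and 6.73 TPM in KO DHT+ENZ, against 8.28, 11.3, 10.5 and 9.34 TPM in KO DHT. Fanci-201 held 95.2% and 94.6% of Fanci counts in the same groups, and was at 8.94, 7.35, 7.95 and 9.01 TPM in KO DHT+ENZ, against 12.6, 12.5, 14.5 and 12.4 TPM in KO DHT. Fancd2-201 was at 5.28, 4.61, 4.36 and 4.54 TPM in KO DHT+ENZ, against 7.14, 7.84, 5.67 and 8.06 TPM in KO DHT. None of these 3 transcripts overlapped between the groups, and Fancd2-201 was the closest to doing so, at 5.28 against 5.67 TPM. Fancd2-201 held 76.2% to 92.2% of Fancd2 counts in KO DHT+ENZ and 75.7% to 91.3% in KO DHT. How many of all transcripts had no overlap was not counted. For Brca2 the division of counts between the long coding transcripts Brca2-210 and Brca2-201 changed from library to library, with Brca2-201 holding 0.00165% to 32.3% in KO DHT+ENZ and 0.000296% to 2.43% in KO DHT. For Palb2 the division of counts between Palb2-202 and Palb2-203 changed from library to library, with Palb2-203 holding 0% to 36.1% in KO DHT+ENZ. No transcript of Brca2 or Palb2 is compared between groups. For Trp53bp1, transcript 216, annotated as a target of nonsense-mediated decay, held 23.5% of counts in KO DHT+ENZ and 23.6% in KO DHT.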

How the data were processed

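Per the labels' protocols, polyA RNA of integrity number above 8 went into paired-end libraries read at 150 bp, with 30 M paired-end reads (M, mega) as the target. Reads were quantified with kallisto on build GRCm39, per the submitters' processing notes, and the version was not given in the sources used here. Per the file headers, the deposited files hold estimated counts and TPM per transcript. The authors' expected counts are not scaled between samples, and TPM is scaled by the authors' tool to a fixed sum per library.

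Of 146190 transcripts, 135007 were matched by identifier to 49166 genes of GENCODE M21, used for names alone since its build differs. They held 98.85% to 99.12% of counts. Gene sums were rounded to whole counts and fitted in edgeR 4.0.16 (R 4.3.3) as 1 quasi-likelihood model of 4 groups and 16 libraries with TMM scaling and filterByExpr. P-values were adjusted by Benjamini-Hochberg over all 16971 genes, and an adjusted p under 0.05 is a call. SE is the absolute log2 fold change over the square root of the F statistic, and log2 CPM used a prior count of 2. Alternatives were DESeq2 1.42.0, limma-voom 3.58.1, DESeq2 size factors, no filter, a transcript length trend, the replicate block, subsets of replicates and leaving out each library. Python 3.11.15 with numpy 2.4.6 and pandas 2.3.3 made the tables. The edgeR model was tested on simulated data without any effect of the replicate number. That test does not bear on the choice between the models with and without the block.

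The labels do not say that replicate numbers pair cultures. With group means removed, same-numbered libraries correlated at r = 0.16 to 0.79 over 9747 genes in the 4 comparisons of KO DMSO with WT DMSO and among KO groups, above the 0.1 set for pairing, so the blocked value is given there. In the comparisons of KO DHT and KO DHT+ENZ with WT DMSO, replicate 1 was at -0.01 and 0.08, and blocked values stand in the closing section. The block lowered the common biological coefficient of variation to 0.122, against 0.212 for the unblocked model.

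The genes and lists were chosen with earlier results of these data known. All 9 genes were named throughout. From each list the 4 smallest p-values in KO DHT+ENZ against KO DHT, and up to 8 called genes, could be named. Shld3 of the end joining list was not tested for low counts. Results of some genes are not reported here. Reads shared between similar sequences were divided by kallisto.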

Additional observations from a re-analysis of the deposited data

How the results depend on the processing

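Counts of called genes among the 9 moved with the model more than their fold changes did, and every call was on the lower side. For KO DHT+ENZ against KO DHT, KO DMSO and WT DMSO in that order, the counts were 2, 1 and 0 in the edgeR model without the block and 6, 6 and 6 with the replicate block. They were 3, 3 and 2 in DESeq2, where 0.713%, 0.795% and 0.949% of all genes were called lower, and 7, 7 and 7 in DESeq2 with the replicate block, where 2.81%, 3.15% and 4.18% were. In limma-voom, where the block was a random effect, they were 6, 4 and 5, with 1.34%, 1.46% and 1.82% of all genes. They were 2, 1 and 0 with DESeq2 size factors (0.183%, 0.171% and 0.189% of all genes), and 0, 0 and 0 with no filter on low counts, where 11, 6 and 11 of 33519 genes were called lower. With the length trend offset they were 3, 3 and 3 (0.572%, 0.572% and 0.684%), and with that offset and the replicate block 6, 6 and 7 (2.42%, 2.45% and 3.98%). With only replicates 1 and 4 and the replicate block they were 0, 0 and 0, and 0 of all genes were called lower, while with only replicates 2 and 3 they were 5, 2 and 2 (314, 170 and 446 of 16971 genes). Leaving out 1 library gave 0 to 2, 0 to 2 and 0 to 1 without the block, and 5 to 7, 3 to 7 and 3 to 7 with it, and these fits called 0% to 0.471%, 0% to 0.465% and 0% to 0.359% of all genes lower without the block and 0.672% to 4.13%, 1.02% to 4.49% and 1.24% to 3.98% with it. The blocked count of 3 against WT DMSO came without KO DHT+ENZ replicate 1, 3 or 4, where 1.24%, 1.48% and 1.64% of all genes were called lower, and the unblocked call was Fanci, without WT DMSO replicate 1. The blocked calls against WT DMSO, where the numbers did not meet the minimum for pairing, were Brca1, Rad51ap1, Exo1, Fancd2, Fanci and Palb2, where 2.71% of all genes were called lower. The fit with no filter tested more genes and the subsets held fewer libraries. The cause of these differences was not tested.

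Over all 43 settings the log2 fold change in KO DHT+ENZ against KO DHT was -0.53 to -0.46 for Fancd2, -0.69 to -0.42 for Fanci, -0.58 to -0.34 for Brca1, -0.51 to -0.28 for Exo1, -0.48 to -0.31 for Blm and -0.50 to -0.29 for Rad51ap1. Trp53bp1 ran from -0.16 to 0.01 and was called in 0 of 43. The KO DMSO, KO DHT and WT DMSO comparisons among themselves gave 0 calls among the repair genes in every setting, and no called value changed sign. Few of all genes were called there either. The largest counts, lower and higher together, came with only replicates 2 and 3 and the replicate block. They were 183 of 16971 genes in KO DMSO against WT DMSO, 1 in KO DHT against KO DMSO and 506 in KO DHT against WT DMSO. The count of 0 therefore does not set the repair genes apart from other genes. Palb2 rested on the lowest counts, at 4.1 to 7.71 CPM.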
